A study of Mus musculus with 12 samples.

Results

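A set of 9 genes of blood clotting and clot removal that are known from vessel walls was followed in side population cells of 2 mouse muscles: Vwf, F8, F3, Thbd, Procr, Tfpi, Tfpi2, Plat and Serpine2. They were found as the probe sets whose single gene symbol in the platform annotation was one of these names. That gave 12 probe sets for 8 of the 9 genes, out of 45101 probe sets and 18194 named genes in all, and Serpine2 was not analysed here. The 2 groups were side population cells of extraocular muscle (EOM, the muscles that move the eye) and side population cells of tibialis anterior (TA, a muscle of the lower hind limb), with 6 separately isolated preparations each and 1 array per preparation. A side population is the minor share of cells that stays dim in a sort because it exports the dye Hoechst. The strain, age and sex of the mice are not given in the sources used here. No treatment or genotype is named for either group, so muscle of origin is the stated difference, and each array is a mixture of the cells that passed the dye gate. Nothing in the labels ties a preparation to 1 animal.

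Endothelial cells keep blood fluid by displaying and secreting inhibitors of clotting, and they also store the proteins that start a plug when the vessel is torn. Vwf, von Willebrand factor, tethers platelets and carries factor VIII (F8). Tissue factor (F3) starts coagulation outside the vessel lumen, and the Kunitz-type inhibitors Tfpi and Tfpi2 restrain it and related proteases. Thrombomodulin (Thbd) and the endothelial protein C receptor (Procr) work side by side to turn on protein C, which shuts coagulation down. Tissue plasminogen activator (Plat) starts the removal of fibrin, and Serpine2, a protease inhibitor also called protease nexin, restrains thrombin and plasminogen activators. Several of these genes are also known outside endothelium: F3 in perivascular cells and fibroblasts, Vwf in megakaryocytes and platelets, Plat in neurons, and Procr on stem cells of several tissues.

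Of the 12 arrays 3 stood apart from the rest, and they recur below. On EOM 1, TA 3 and TA 5 the median signal was 63.2 to 87.2, against 31.2 to 43.4 on the other 9. Their beta-actin signal at the 3' end exceeded that at the 5' end 100.2-fold to 165-fold, against 5.27-fold to 68.6-fold in the remaining arrays; this ratio grows as the amplified RNA gets shorter. For Gapdh the same ratio was 9.88 to 34.5 against 4.92 to 24.5. The 9.88 was that of EOM 1, so the Gapdh ratio did not set this array apart. The hybridization controls averaged 12729 to 27306 on the 3 arrays and 3356 to 7554 on the others. The mean correlation with arrays of the same group was 0.632 for EOM 1 and at least 0.865 for each of those 9. Abcg2, the transporter behind the dye phenotype, had a signal of 100.3 to 1014 in EOM and 1705 to 3461 in TA. The satellite cell gene Pax7 had a mean signal of 5.73 in EOM and 52.9 in TA and lay under the level at which probe sets were tested.

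The clotting genes of vessels did not move together. Vwf was far lower in EOM, Plat and Procr were higher, and F8, F3, Thbd, Tfpi and Tfpi2 did not pass the test with all 12 arrays. All 8 genes lay above the level filter, so 2 of 8 rose and 1 of 8 fell, with the test run over all 27022 probe sets that passed the filter (limma, Benjamini-Hochberg adjusted p under 0.05). Over the 13067 genes tested, 10.9% passed, 4.05% as higher and 6.81% as lower in EOM. The median log2 difference was -0.17 over the 8 members and -0.04 over all genes. Of the members only Vwf and Procr had groups that did not overlap, where 7.13% of all genes did so, 2.33% with EOM above and 4.8% with EOM below. Without EOM 1 the members gave 3 higher and 1 lower, Tfpi2 being the addition, where 20.5% of all genes passed, 10% as higher and 10.5% as lower. Without EOM 1, TA 3 and TA 5 they gave 3 higher and 2 lower, with Thbd added, where 21.8% of all genes passed, 10.6% as higher and 11.2% as lower. Because these are bulk preparations, fewer cells of a type and less RNA per cell cannot be told apart in any value below.

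**Figure D1:**
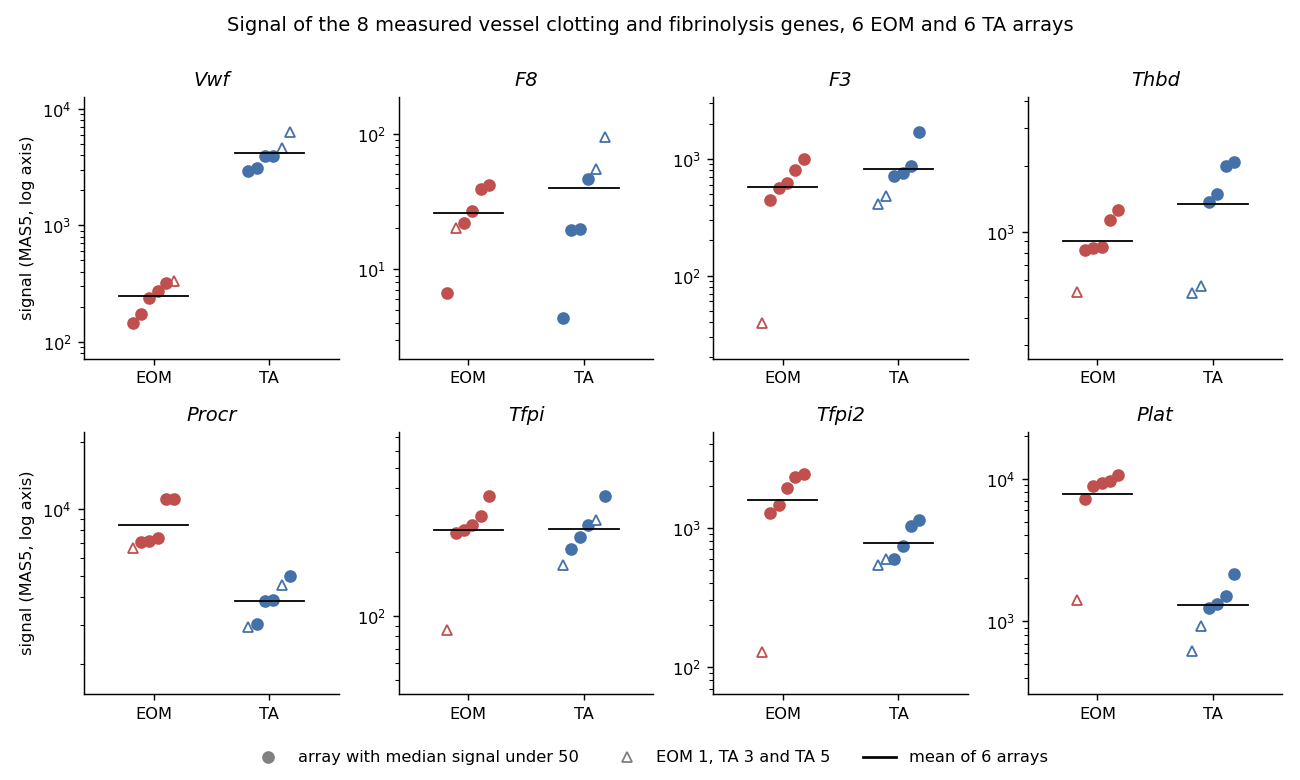
MAS5 signal on a log axis for each of the 8 measured genes, 1 point per array, EOM left and TA right, with the mean of the 6 arrays as a bar. Open triangles are EOM 1, TA 3 and TA 5; the 6 EOM arrays of Vwf lie between 144 and 335, all under the 6 TA arrays, and EOM 1 lies under the other EOM arrays for F3, Tfpi2 and Plat.

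Vwf had the largest change of the members. Its signal was 144 at the lowest, 257 at the median and 335 at the highest in EOM, against 2955, 3962 and 6396 in TA. Every TA array was therefore well above every EOM array, and the groups were far apart. The means were 248 ± 77.5 in EOM and 4172 ± 1252 in TA (SD, n = 6 each). The log2 difference was -4.00 ± 0.27 (SE, limma adjusted p = 1.27e-07), or 15.96-fold lower in EOM on the log2(signal + 16) scale used for all differences here. Its 95% interval ran from -4.56 to -3.43. Ordered by difference, Vwf stood at place 20 from the bottom of the 13067 genes tested. The call held in every alternative fit, with values from -4.09 to -3.76 (adjusted p at most 4.62e-06). In both groups the arrays that stand apart were high for Vwf: EOM 1 was the highest of the EOM arrays at 335, and TA 5 and TA 3 the highest of the TA arrays at 6396 and 4638.

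F8, the clotting cofactor that circulates bound to von Willebrand factor, was measured at low signal. It ranged from 6.70 over a median of 24.5 to 41.8 in EOM, against 4.40, 33.1 and 93.7 in TA. These ranges overlap widely, and the log2 difference was -0.26 ± 0.42 (SE, limma adjusted p = 0.838, 95% interval -1.15 to 0.63). At such signals the added constant of 16 compresses differences. The sign of the F8 difference turned, to 0.21, when EOM 1, TA 3 and TA 5 were left out.

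The storage granules of Vwf, the Weibel-Palade bodies of endothelium, were followed through a list of partners and related genes. Of 7 listed genes tested 3 fell in EOM and 0 rose (limma, 4 lower and 0 higher at an unadjusted p under 0.05), with a median of -0.88. Over all genes tested 6.81% fell and 4.05% rose. Mmrn2, 1 of the 3, is a matrix protein rather than a granule partner, which leaves Selp and Rab27a. Selp, the adhesion receptor P-selectin that is stored in the same granules and in platelets, had a signal of 94.4 to 302 in EOM and 826 to 2708 in TA. The groups did not overlap, and the log2 difference was -3.42 ± 0.32 (SE, limma adjusted p = 1.67e-06). Its other 2 tested probe sets were at -3.71 and -2.67. Rab27a, a small GTPase of granule release, had a signal of 11.8 to 42.1 in EOM and 105 to 205 in TA, with a difference of -2.43 ± 0.28 (SE, limma adjusted p = 1.97e-05); a second probe set of it was at 0.13 (adjusted p = 0.922). Mmrn2, an endothelial matrix protein of the multimerin family that is also among the endothelial markers below, fell by 3.70 on the log2 scale (limma adjusted p = 7.07e-06), and its other 3 probe sets lay between -3.36 and -2.39. Angpt2, the angiopoietin kept in the same granules, was at -0.26 (95% interval -0.74 to 0.23) and did not pass, nor did Mmrn1 (-0.38), Stxbp5 (-0.20) and Bloc1s6 (-0.88, limma adjusted p = 0.0509, and 0.0399 without EOM 1).

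F3, which encodes tissue factor, was not resolved. Its signal was 38.9 at the lowest, 593 at the median and 996 at the highest in EOM, against 407, 738 and 1709 in TA. The ranges overlap, and the lowest value of all is EOM 1, with the next EOM array at 445. The log2 difference was -0.76 ± 0.56 (SE, limma adjusted p = 0.522, 95% interval -1.93 to 0.41). Without EOM 1 it was -0.16 ± 0.31 (SE, adjusted p = 0.788). The lowest TA arrays for F3 were TA 5 at 407 and TA 3 at 481.

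Of the 2 receptors of protein C activation, Procr passed with all arrays and Thbd did not. Procr had a signal of 6694 at the lowest, 7298 at the median and 11118 at the highest in EOM, against 2932, 3855 and 4971 in TA. All EOM arrays were above all TA arrays, the nearest being EOM 1 at 6694 and TA 0 at 4971. The means were 8438 ± 2084 in EOM and 3863 ± 811 in TA (SD, n = 6 each). The log2 difference was 1.12 ± 0.25 (SE, limma adjusted p = 0.00667), 2.17-fold higher in EOM with a 95% interval of 1.52-fold to 3.10-fold. Procr passed in every alternative fit, at 1.03 to 1.21 and an adjusted p of at most 0.0440. The suffix of its probe set (1420664_s_at) marks probes that can match more than 1 transcript.

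Among the measured members, RefSeq promoter windows were held for Procr, F3, Tfpi, Tfpi2 and F8. Procr is the one of them that passed with all arrays, so the stretch just before its annotated start is printed. It covers 158 bases on the plus strand of GRCm38.p6, chr2:155750967-155751124, and ends at the base before the gene. Capitals mark the one match found to 4 motifs searched on both strands, an AP-1 motif (TGANTCA, N being any base) that starts 62 bases before the gene.
Procr: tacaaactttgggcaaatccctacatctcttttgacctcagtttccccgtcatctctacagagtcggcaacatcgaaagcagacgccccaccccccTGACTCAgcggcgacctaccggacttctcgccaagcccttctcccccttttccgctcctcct
Of 32851 windows of the same length cut from all RefSeq promoters, 4.27% held this motif. The stretch had no match to the GC box GGGCGG (held by 17.8% of the windows), to CCGGAA, the core bound by ETS factors (5.81%), or to the TATA box TATAAA (7.57%). These are matches of letters in 1 window, and no motif overlapped another.

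Thbd, thrombomodulin, did not pass with all arrays. Its signal was 525, 846 and 1262 in EOM (lowest, median and highest) and 519, 1431 and 2097 in TA. The groups overlap because TA 3 at 519 and TA 5 at 562 were far below the other TA arrays, which lay at 1370 or above. EOM 1, at 525, was the lowest EOM array. The log2 difference was -0.41 ± 0.36 (SE, limma adjusted p = 0.614, 95% interval -1.17 to 0.34). Without EOM 1, TA 3 and TA 5 it was -0.82 (adjusted p = 0.00792), and with array weights -0.72 (adjusted p = 0.0348), so that Thbd fell in those fits.

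Procr and Thbd were also compared within arrays, as the difference of their log2 levels. This difference averaged 3.22 ± 0.39 in EOM and 1.68 ± 0.86 in TA (SD, n = 6 each). The groups overlapped, at 2.65 to 3.68 in EOM and 0.867 to 3.09 in TA, where TA 3 was the highest. EOM exceeded TA by 1.53 (exact permutation test over 924 assignments, two-sided, p = 0.00649, 0.0195 after adjustment over 3 member pairs). Without EOM 1 it was 1.45 (exact permutation p = 0.0130, adjusted 0.0195). The value sets the Procr difference of 1.12 against the Thbd difference of -0.41, both given above, so it is not separate evidence. The same comparison for F3 over Tfpi gave -0.68 (exact permutation p = 0.173, adjusted 0.173). The 3 pairs, of which Tfpi2 over Tfpi is given below, were chosen after the values were seen. Their adjusted p-values do not cover that choice. Vwf over F8 and Plat over Vwf were also looked at and left out, because they restate the values of Vwf and Plat.

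Tfpi and Tfpi2, the Kunitz-type inhibitors, did not pass with all arrays. The best measured probe set of Tfpi (1438530_at) had a signal of 85.5, 262 and 369 in EOM (lowest, median and highest) against 173, 252 and 370 in TA. The ranges were almost the same apart from EOM 1, the array at 85.5. Its log2 difference was -0.08 ± 0.31 (SE, limma adjusted p = 0.939). For this probe set the 95% interval of -0.73 to 0.57 leaves out a change of 2-fold in either direction. The other 3 probe sets of Tfpi lay at 0.06, 0.44 and 0.66, with limma adjusted p between 0.201 and 0.949. The 95% intervals of those at 0.44 (-0.39 to 1.26) and 0.66 (0.05 to 1.26) include a 2-fold rise. The one at 0.66 (1452432_at) had signals of 53.5 to 142 in EOM and 31.6 to 62.9 in TA, low and slightly overlapping.

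Tfpi2, which inhibits plasmin and other proteases of the matrix, hinged on 1 array. Its signal was 128, 1693 and 2426 in EOM (lowest, median and highest) and 537, 668 and 1132 in TA. The lowest value is EOM 1, while the other 5 EOM arrays started at 1271 and lay above all TA arrays. With 12 arrays the log2 difference was 0.67 ± 0.53 (SE, limma adjusted p = 0.572, 95% interval -0.45 to 1.78). Without EOM 1 it was 1.28 ± 0.25 (SE, adjusted p = 0.00123), 2.42-fold higher in EOM. It also passed with array weights (1.11, adjusted p = 0.00318) and without EOM 1, TA 3 and TA 5 (1.09, adjusted p = 0.00327). Against Tfpi within arrays it was higher in EOM by 0.75 (exact permutation p = 0.102, adjusted 0.153) and by 1.10 without EOM 1 (exact permutation p = 0.00433, the smallest possible there, adjusted 0.0130).

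Plat, the plasminogen activator, rose in EOM. Its main probe set (1415806_at) had a signal of 1422 at the lowest, 9082 at the median and 10579 at the highest in EOM, against 622, 1282 and 2152 in TA. The EOM arrays other than EOM 1 lay at 7154 or above, clear of all TA arrays, and EOM 1 alone fell among them. The means were 7819 ± 3331 in EOM and 1296 ± 524 in TA (SD, n = 6 each). The log2 difference was 2.44 ± 0.43 (SE, limma adjusted p = 0.00111), 5.44-fold higher in EOM with a 95% interval of 2.89-fold to 10.2-fold. Plat stood at place 46 from the top of the 13067 genes. Without EOM 1 the value was 2.89 ± 0.26 (SE, adjusted p = 3.31e-07), and the call held in every alternative fit, at 1.73 to 2.89 and an adjusted p of at most 0.0236. A second probe set (1458553_at), with signals of 71.3 to 209 in EOM and 16.2 to 228 in TA, was at 1.01 ± 0.43 (SE, adjusted p = 0.187). It has the same direction and passed without EOM 1, TA 3 and TA 5 (1.48, adjusted p = 0.00225).

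**Figure D2:**
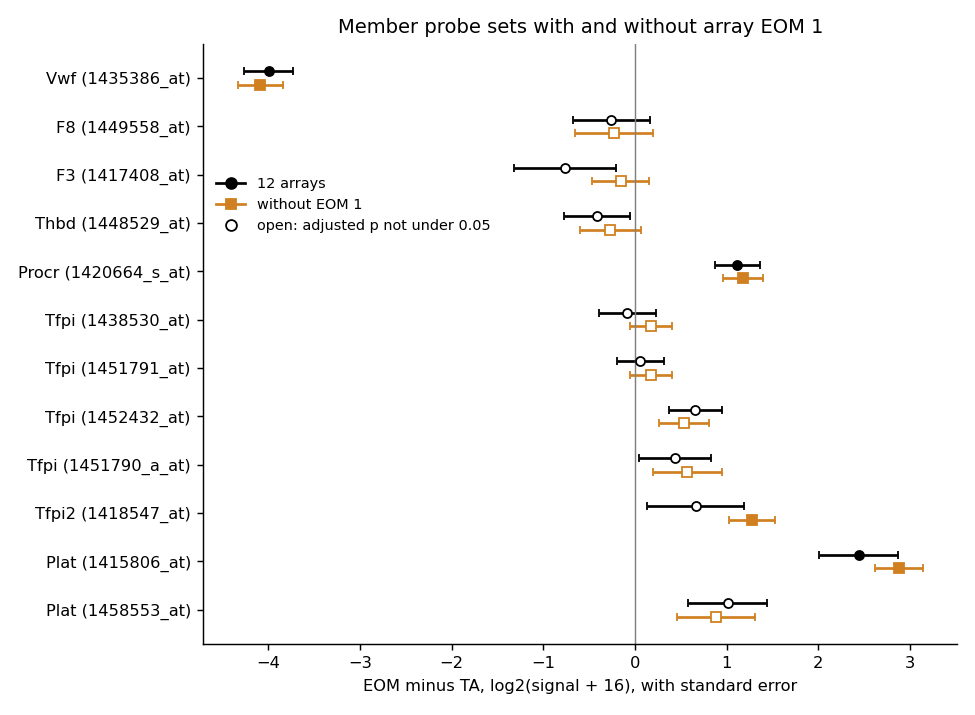
Log2 difference, EOM minus TA on log2(signal + 16), of the 12 member probe sets with its standard error, from all 12 arrays (black circles) and without EOM 1 (orange squares). Filled symbols have an adjusted p under 0.05; Vwf, Procr and the main Plat probe set are filled in both fits, and Tfpi2 is filled only without EOM 1.

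The other genes of the plasminogen system showed no call with all arrays when each was read by its probe set of highest mean. Of 6 tested 0 rose and 0 fell, where 4.05% of all genes rose and 6.81% fell. At an unadjusted p under 0.05 (limma) 0 were higher and 2 lower, and the median log2 difference of the 6 was 0.05. Plau, the urokinase-type activator, was low, averaging 21.6 ± 15.1 (SD) across the EOM arrays and 49.0 ± 17.7 across the TA arrays (log2 difference -0.85, limma adjusted p = 0.182). Its receptor Plaur was at 0.30 (95% interval -0.31 to 0.92). Anxa2 and S100a10, which form a plasminogen and Plat receptor on the cell surface, were at 0.20 and -0.11, and Plgrkt, another plasminogen receptor, at 0.27. Serpini1, the inhibitor neuroserpin, whose main target is Plat, was at -1.04 (limma adjusted p = 0.125) and at -1.31 without EOM 1 (adjusted p = 0.0115). A second Serpini1 probe set, of lower mean level, passed with all arrays at -1.99 (adjusted p = 0.00132). Plg, Serpinb2 and Serpinf2 were under the level filter, with mean signals of 10.8 to 28.95 in either group.

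Anticoagulant proteins other than the members went both ways. Ptgis, the synthase of prostacyclin, which keeps platelets quiet, had a signal of 1823 to 4425 in EOM and 355 to 892 in TA. The groups did not overlap, and the log2 difference was 2.43 ± 0.28 (SE, limma adjusted p = 1.62e-05). Entpd1, the surface enzyme CD39 that breaks down platelet-activating nucleotides, went the other way, with signals averaging 120 ± 81.5 (SD) across the EOM arrays and 419 ± 156 across the TA arrays. Its difference was -1.76 ± 0.35 (SE, limma adjusted p = 0.00294), and its other 2 probe sets were at -0.73 and -0.88. The remaining 4 tested were Pros1 (0.22), Hs3st1 (0.06), Anxa5 (0.24) and Serpinc1 (-0.42), and none passed.

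Of 4 genes of vitamin K dependent carboxylation and of factor secretion 1 rose, and by the probe set of highest mean all 4 had positive differences. Among all genes tested 4.05% rose. Ggcx, the carboxylase of the clotting factors, had a signal of 50.9 to 115 in EOM and 17.4 to 55.6 in TA (log2 difference 1.07, limma adjusted p = 0.0383). With no level filter Ggcx did not pass (adjusted p = 0.0962), and its second probe set was at 0.10 (adjusted p = 0.941). Lman1, the cargo receptor that exports factors V and VIII from the endoplasmic reticulum, was at 0.86 (limma adjusted p = 0.0959), with its other 3 probe sets at -0.65, -0.09 and 0.31, its partner Mcfd2 at 0.35 and Vkorc1, which recycles vitamin K, at 0.48. Without EOM 1 all 4 passed as higher in EOM, with adjusted p of 0.00734 to 0.0442, in a fit where 10% of all genes did. Without EOM 1, TA 3 and TA 5 only Vkorc1 and Lman1 passed, 2 of the 4, with Ggcx at an adjusted p of 0.0523 and Mcfd2 at 0.0622.

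The thrombin receptor gene F2r did not pass, averaging 5772 ± 994 (SD) across the EOM arrays and 5032 ± 1948 across the TA arrays (log2 difference 0.29, 95% interval -0.33 to 0.92, limma adjusted p = 0.688). F2rl2 was at 0.12 (limma adjusted p = 0.940), and F2rl3 was under the level filter at a mean of 7.52 in EOM and 22.4 in TA. Most clotting factors known from liver and plasma were near the bottom of the scale: of 14 genes 11 were not tested, and F2, F10 and F13a1 (-0.04, -0.66 and -0.67) did not pass (limma; 0 of 3 at an unadjusted p under 0.05). In all, 28 of 48 genes of the wider pathway with a named probe set were tested, 2 rose and 4 fell, and the median was -0.07, where 4.05% of all genes rose and 6.81% fell. Without EOM 1 those counts were 6 and 6 (10% and 10.5% of all genes), and without EOM 1, TA 3 and TA 5 they were 3 and 6 (10.6% and 11.2%).

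**Figure D3:**
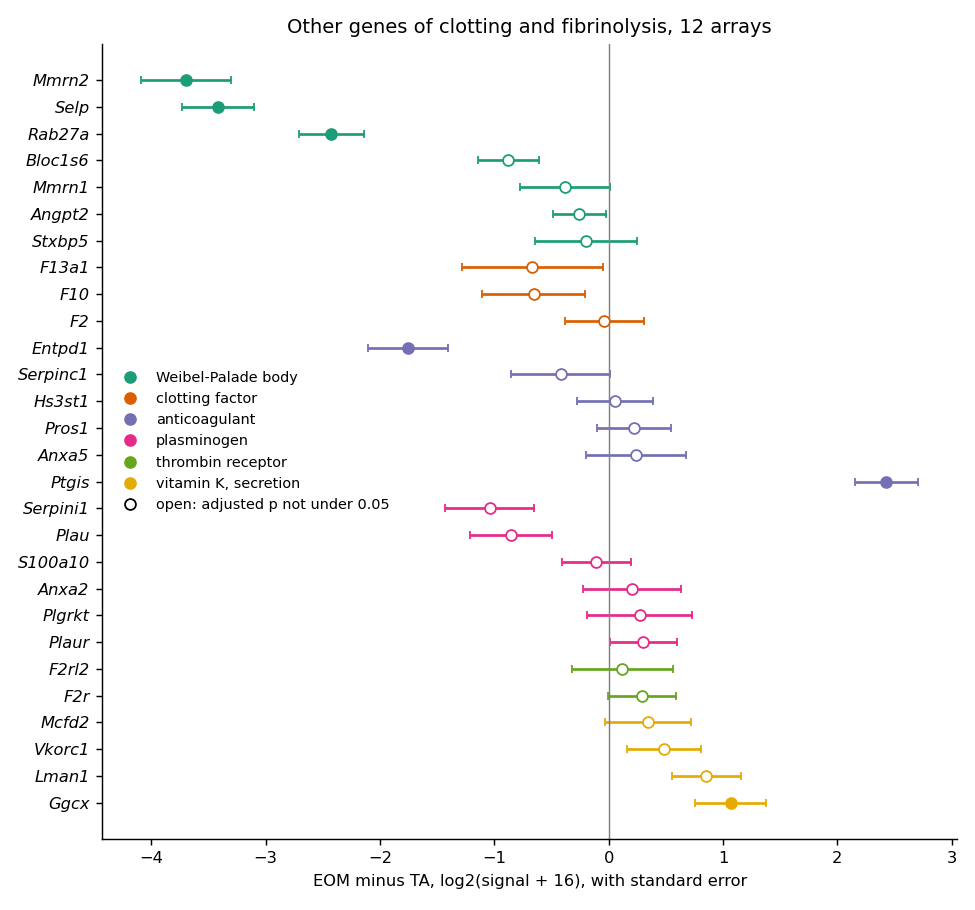
Log2 difference, EOM minus TA on log2(signal + 16), with its standard error, of the 28 tested genes of the wider pathway, coloured by role. Filled points passed (adjusted p under 0.05): Mmrn2, Selp, Rab27a and Entpd1 on the negative side, Ptgis and Ggcx on the positive side.

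Markers of several cell types also differed between the muscles. Each summed signal below covers every gene of the list with a named probe set, also those under the level filter. EOM 1 gave the highest EOM sum for every marker list except the macrophage list. For the counts below, 4.05% of all genes tested rose and 6.81% fell. Of 21 endothelial markers tested 18 fell and 0 rose in EOM (limma; 20 lower and 0 higher at an unadjusted p under 0.05), with a median log2 difference of -3.51. Their summed signal was 2938 to 5794 in EOM and 27583 to 51859 in TA. The largest changes were in the secreted vascular factor Egfl7 (-4.75), the receptor Cd93 (-4.10) and the adhesion molecule Icam2 (-4.04). Vwf, at -4.00, lay inside their range, 4 of the 21 being lower. The highest was the angiopoietin receptor Tek (-0.18), which did not pass. Plat, Procr, Tfpi2 (0.67) and Tfpi (-0.08) lay above all 21, and F8, F3 and Thbd inside the range. The mural cell list (pericytes and smooth muscle) had 12 tested genes, of which 10 fell and 0 rose (limma; 10 and 0 at an unadjusted p under 0.05), with a median of -2.47 and a summed signal of 6580 to 11189 in EOM and 22461 to 40345 in TA. Myh11 (-4.03), Ano1 (-3.97) and Rgs5 (-3.96) led those that fell, each gene being read by its probe set of highest mean. Pdgfrb (-0.51) and Abcc9 (0.94) did not pass. Another probe set of Abcc9 passed as higher in EOM (1.87, limma adjusted p = 0.0367).

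Fibroblast markers were split. By the probe set of highest mean, of 13 tested 7 rose and 0 fell (limma; 8 higher and 0 lower at an unadjusted p under 0.05), with a median of 1.42, led by Pi16 (5.55), Dpep1 (2.07) and Cd248 (2.02). Dpt (1.90) and Mfap5 (1.45) were also among those that rose. Dcn (0.16), Col1a1 (-0.84), Col1a2 (-0.09), Col3a1 (0.00292) and Gsn (-0.14) did not pass. Lum, at 1.54 (limma adjusted p = 0.194), did not pass either, but did without EOM 1 (2.20, adjusted p = 0.00165). Another probe set of Col1a2 passed as lower in EOM (-1.55, limma adjusted p = 0.0140). The summed signal of the 13 fibroblast markers was 154896 to 376286 in EOM and 98543 to 220183 in TA, so the groups overlapped. The highest TA sum was that of TA 3. Platelet and megakaryocyte markers, of interest because platelets carry Vwf and Selp, gave 0 calls among 7 tested (limma; 1 higher and 1 lower at an unadjusted p under 0.05). The median of the 7 was -0.13. The summed signal of the 10 with a named probe set was 599 to 1922 in EOM and 483 to 1149 in TA. Pf4 was at -1.29 (adjusted p = 0.0549) and passed without EOM 1 (-1.58, adjusted p = 0.00274), and Itgb3, the beta chain of the fibrinogen receptor, was at 1.10 (adjusted p = 0.0510) and passed without EOM 1 as higher (1.01, adjusted p = 0.0436).

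Macrophage markers had 4 lower and 0 higher of 9 (limma; 7 and 0 at an unadjusted p under 0.05; median -1.63; summed signal 348 to 1278 in EOM and 989 to 6310 in TA), with Ctss (-3.47), Tyrobp (-2.90) and Csf1r (-2.24) in front. Lymphatic markers had 2 lower and 0 higher of 7, with a median of -0.38 and a summed signal of 1618 to 3406 in EOM and 1725 to 5214 in TA. The lower ones were Stab1 (-2.64) and Flt4 (-2.29), and a second Flt4 probe set was at -0.50 (limma adjusted p = 0.642). Lyve1 (0.78), Pdpn (0.03), Stab2 (-0.22), Mmrn1 (-0.38) and Reln (-0.615) did not pass, and Prox1 was under the level filter. Nerve glia markers, relevant because Plat is also known from nervous tissue, had 0 calls among 9 (limma; 0 at an unadjusted p under 0.05; median 0.01; summed signal 3498 to 17082 in EOM and 3005 to 8885 in TA). The glia sum of 17082 was that of EOM 1, where Mbp alone gave 15306. Myofibre and satellite cell markers had 1 lower of 6 tested, Acta1 (-1.66). The summed signal of all 12 was 115 to 907 in EOM and 454 to 1360 in TA. The table lists no signal of 0, its lowest value being 0.1, and the part of any of these cell types in the changes of the members was not tested.

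**Figure D4:**
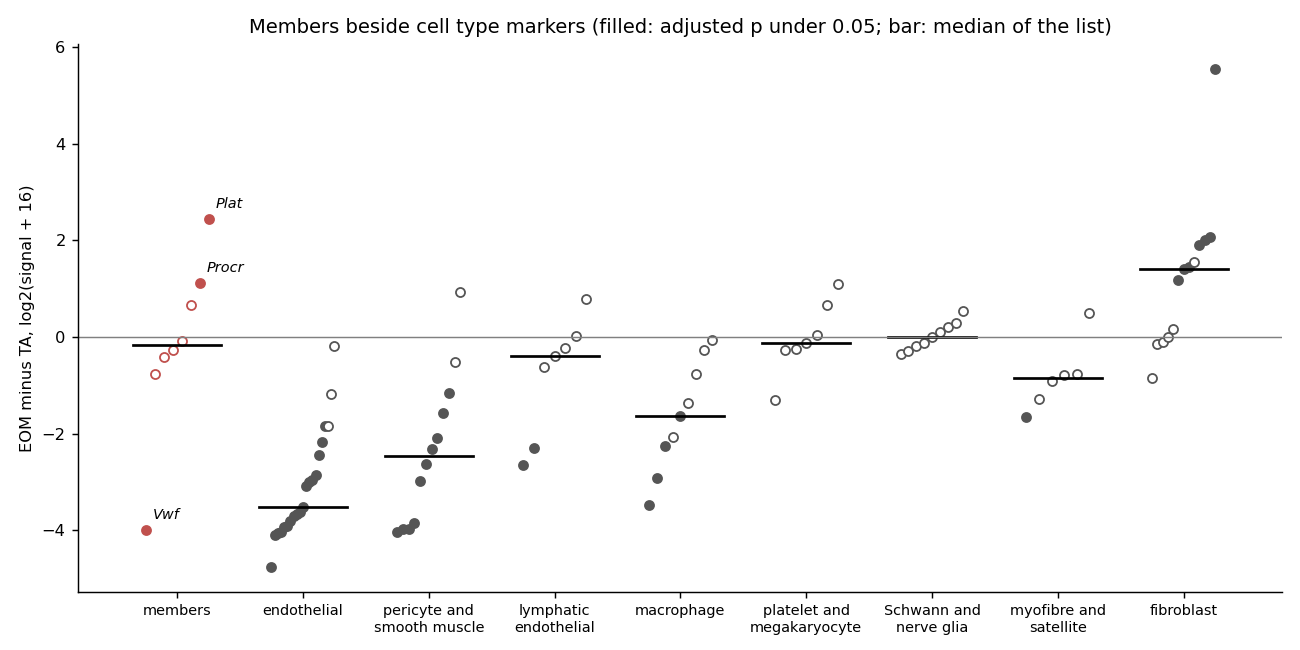
Log2 difference, EOM minus TA on log2(signal + 16), of the 8 members (red, left) and of the tested markers of 8 cell types (grey), 1 point per gene, with the median of each list as a bar. Filled points passed (adjusted p under 0.05). Vwf lies among the endothelial markers, whose median is -3.51, and Plat, Procr and Tfpi2 lie above 0. The fibroblast markers run from under 0 to 5.55 around a median of 1.42.

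Within the groups, 4 members shared their low arrays. For Plat, F3, Tfpi2 and Thbd alike, EOM 1 was the lowest EOM array and TA 3 and TA 5 were the lowest 2 TA arrays. These are the 3 arrays with the high median signal and beta-actin ratio given above. With the 3' to 5' ratio of the actin and Gapdh controls as a covariate, Plat was at 2.22 (limma adjusted p = 0.000923), F3 at -1.04 (0.248), Tfpi2 at 0.45 (0.690) and Thbd at -0.62 (0.268), and the calls were those of the fit without it. For Procr EOM 1 and TA 5 were also the lowest of their groups, at 6694 and 2932, but TA 3 was next to the highest TA array at 4551. Vwf ran the other way, with the same 3 arrays high.

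The 2 genes most like each changed member were sought among the 13067 tested genes with the members set aside. The measure was the Pearson correlation of deviations from the group means. The closest other member was Tfpi2 for Plat (0.921), Tfpi2 for Procr (0.506) and F8 for Vwf (0.264), each below the genes found. The genes most like Plat were the chaperone gene Dnaja1 (Pearson 0.990, Spearman 0.958, 0.960 by Pearson without EOM 1) and Edem1 of endoplasmic reticulum quality control (Pearson 0.989). Neither passed between the muscles, at -0.13 and 0.25. For Procr they were the kinase gene Jak2 (Pearson 0.865) and Mtf2 (0.822), and for Vwf 2810408I11Rik (0.920) and Prss41 (0.918). These values describe 12 arrays, and within each array all genes share 1 preparation and its labelling.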

How the data were processed

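Total RNA of 12 separately isolated preparations was amplified in a 2-cycle protocol and hybridized to Affymetrix mouse expression arrays, per the labels' protocols. The values the authors deposited are linear signal intensities computed with MAS5 (version 5.0), per the labels. The mean of each array, trimmed by 2% at each end, came to 150. Presence calls and genome build were not used here. The number of arrays limits the precision, and p-values measure the spread between preparations, which the labels do not tie to animals.

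From these intensities log2(signal + 16) was taken with no further scaling. Left out were 64 control probe sets and the 40% of the others with the lowest mean level, so 27022 were tested. The muscles were contrasted in limma 3.58.1 (R 4.3.3; empirical Bayes with intensity trend, two-sided, Benjamini-Hochberg over all tested probe sets, threshold 0.05). Where a gene had several probe sets, the one with the highest mean stood for it. Symbols came from the platform annotation, with 1 symbol for 34958 probe sets, several for 932 and none for 9211. The 8 measured members were matched to the RefSeq gene table by Entrez number. Pairs of members were compared by exact permutation (scipy 1.17.1). In a simulation of the EOM and TA contrast on 27022 probe sets, 65% of 200 changes of 2 on the log2 scale were recovered, and 2% of 200 changes of 1. The data gave 866 higher and 1359 lower probe sets. With fewer changes the adjusted threshold is stricter, so these shares are not the power of the real contrast.

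The members, lists and alternatives were chosen with earlier results of these data known. Named by rule were all members, genes of the wider list that passed, its plasminogen and thrombin receptor genes, up to 3 passing markers per list, and the 2 genes most like each changed member. Other genes of the wider list, other fibroblast, mural and lymphatic markers, Tek, Pax7, Abcg2, Pf4 and Itgb3 were named after their values were seen. The member pairs were chosen then too. The alternatives covered the added constant, scaling, filters, variance model, array weights, RNA shortening, replicate number and left-out arrays.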

Additional observations from a re-analysis of the deposited data

Results flagged for a closer look

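Among 24 groups of 6 arrays (12 member probe sets in 2 groups), 5 had 1 array far from the rest by Dixon's test on the log2 scale, where chance flags about 1 in 20. In 4 of the 5 it was EOM 1, as the lowest EOM array. It was at 38.9 for F3 (1417408_at), with the next EOM array at 445, and at 128 for Tfpi2, with the next at 1271. It was at 1422 for the main Plat probe set, with the next at 7154, and at 85.5 for Tfpi (1438530_at), with the next at 246. The fifth was TA 6 for another Tfpi probe set (1451791_at), at 89.0 with the next TA array at 149. EOM 1 is also the array with the highest median signal (87.2) and the highest signal of the hybridization controls.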

How the results depend on the processing

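Vwf, Plat and Procr kept their direction and call in all 25 alternatives run: -4.09 to -3.76 for Vwf, 1.73 to 2.89 for Plat and 1.03 to 1.21 for Procr. With 1 array left out they ranged from -4.09 to -3.86, 2.26 to 2.89 and 1.03 to 1.19. The other ranges with 1 array left out were -0.997 to -0.16 for F3, -0.50 to -0.02 for F8, -0.21 to 0.18 for Tfpi, 0.46 to 1.28 for Tfpi2 and -0.64 to -0.25 for Thbd. The members called ranged from 2 to 3 higher and stayed at 1 lower. Over all probe sets, where 12 arrays called 866 higher and 1359 lower, those fits called 568 (without EOM 2) to 2128 (without EOM 1) higher and 1011 to 2233 lower. In the wider pathway they called 1 to 6 higher and 4 to 6 lower. Tfpi2 passed with array weights (1.11) and without EOM 1, TA 3 and TA 5 (1.09), and Thbd likewise (-0.72 and -0.82), so 2 members were lower in both of these fits. Over all probe sets, array weights called 2616 higher and 2872 lower, and leaving out the 3 arrays 2256 and 2419. Median centring called 555 and 890. The wider pathway had 5 higher with array weights. It had 1 with quantile normalization, median centring, no filter, a filter on 60%, probe sets averaged per gene and a fixed replicate block. Tfpi, at -0.08, turned sign with median centring (0.0105), array weights (0.0931), probe sets averaged (0.27), without TA 2 (0.0246), without EOM 1 (0.18) and without the 3 arrays (0.10), and F8 turned there too (0.21). The cause was not tested. With the replicate number as a fixed block 607 probe sets were higher and 1025 lower, and no member's call changed (Procr adjusted p = 0.0314, limma). Same-numbered arrays deviated together at -0.317 to 0.157, and EOM 0 alone correlated best with its own number, so the numbers were not taken as pairs. Low signals limit F8, which the filter on 60% left untested, Ggcx, Plau and the second Plat probe set.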
